A study of Homo sapiens with 12 samples.

Results

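The genes described here are 40 genes of G2 and mitosis, the stages in which a cell that has copied its DNA condenses its chromosomes, aligns them on a spindle and divides. They were taken by symbol from a written list of G2 and M phase genes, and no measured value enters that rule. The list was, however, chosen with earlier results of these data known, so its shares beside all tested genes are descriptive. All 40 were found in the deposited table of 58721 genes, and all 40 were among the 21013 genes left after a filter on low counts. RNA-seq was performed on EW8 and TC71 cells, established lines of Ewing sarcoma, a tumor of bone and soft tissue that is driven in most cases by the fusion protein EWS-FLI1. In all 4 groups, the cells (labelled WT) carried a lentiviral cassette in which c-Jun and c-Fos, the canonical subunits of AP-1, are expressed together under a doxycycline-inducible TRE promoter, along with a Tet-On transactivator driven by the EF1 alpha promoter. The infected cells had been selected with geneticin and puromycin, and no cloning step is described. The groups were EW8 vehicle, EW8 doxycycline, TC71 vehicle and TC71 doxycycline, with 3 libraries each, and the cells received DMSO or doxycycline at 2000 ng/ml for 72 h. No cells given doxycycline without the transgenes were analysed here, so the drug itself and the induced c-Jun and c-Fos cannot be told apart.

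Most genes of mitosis are transcribed late in the cell cycle, are low or silent in resting cells, and are therefore read as markers of proliferation. Their promoters commonly hold CCAAT boxes, which bind NF-Y, and a cell cycle genes homology region (CHR), which binds the DREAM complex in resting cells and the B-MYB and FOXM1 complexes in G2. After their work is done, many of the proteins are destroyed through the anaphase-promoting complex (APC/C). Ewing sarcoma cells in culture divide rapidly and express these genes in abundance. The study asked what the joint induction of both AP-1 subunits does to the transcriptome of these lines.

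Total counts per library ran from 42860665 to 60853649, and no member had fewer than 136 counts in any library. JUN and FOS marked the induction. JUN rose from between 19.8 and 24.6 CPM (counts scaled to library size) to between 422 and 504 CPM in EW8 cells, and from between 18.04 and 25.4 CPM to between 705 and 814 CPM in TC71 cells. FOS rose from between 35.9 and 37.6 CPM to between 999 and 1139 CPM in EW8 cells, and from between 11.2 and 12.1 CPM to between 1450 and 1686 CPM in TC71 cells. Transgene and endogenous reads share these gene counts. All 8 Ewing sarcoma markers, CD99 and NKX2-2 among them, exceeded 1 CPM in every library. In EW8 cells the leukocyte markers summed to between 64.9 and 80.0 CPM, nearly all of it PTPRC, and in TC71 cells to at most 0.412 CPM. The 4 endothelial markers summed to at most 8.72 CPM with vehicle and to between 37.4 and 44.3 CPM with doxycycline in EW8 cells, and to at most 0.382 and between 3.85 and 5.14 CPM in TC71 cells. Most of that sum was PECAM1. Of the 4, 2 passed the test as higher in EW8 and 3 in TC71 cells, beside 21.9% and 25.1% of all tested genes. CDH5, which was lower, and KDR, which was higher, did not pass in EW8 cells. With doxycycline in TC71 cells, VWF reached at most 0.364 CPM and CDH5 at most 0.239 CPM. The part of these markers in the results below was not tested. TC71 vehicle replicate 1 stood apart from its group: its chi-square per gene against the other replicates was 63.9 and 61.7, whereas the other 10 replicate pairs lay between 5.4 and 11.03.

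Most mitosis genes were lower in the doxycycline libraries of both lines, by a modest amount. CPM are counts after TMM scaling, and changes are log2 ratios of the groups. In EW8 cells, 34 of the 40 members fell, 1 rose and 5 did not pass the test (edgeR quasi-likelihood test, adjusted p under 0.05), beside 22% of all tested genes called lower, 21.9% called higher and 43.9% called in either direction. In TC71 cells, 30 members fell, 1 rose and 9 did not pass, beside 20.4% of all tested genes called lower, 25.1% called higher and 45.6% called in either direction. The median log2 fold change of the members was -0.37 in EW8 cells and -0.31 in TC71 cells, which corresponds to a median change of -22.8% and -19.1%, while the median over all tested genes was -0.03 and 0.00. With single libraries left out, the member medians ranged from -0.372 to -0.301 in EW8 and from -0.384 to -0.296 in TC71 cells. A difference between the medians of the lines was not tested. The gene that rose was ANLN in each line. No member passed the study's added limit of an absolute log2 fold change over 1, the lowest value being -0.91. Of all tested genes, 3.38% passed that limit downward and 11.4% upward in EW8 cells, and 3.67% and 12.3% in TC71 cells. In bulk RNA, fewer cells in G2 and mitosis and less RNA in each such cell cannot be told apart. Nothing in the labels says that the 3 libraries of a group came from separate cultures, so the p-values measure the spread between these libraries, which may be technical.

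**Figure D1:**
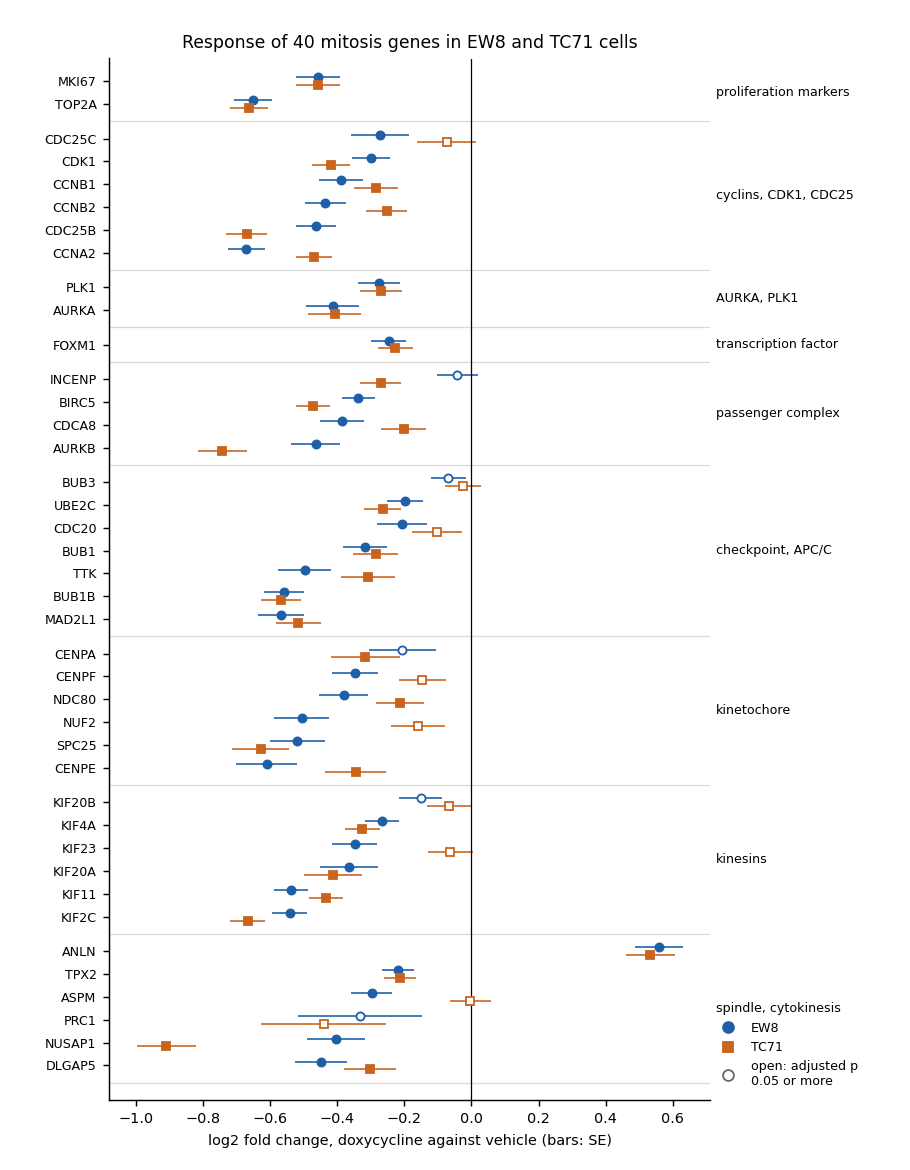
Log2 fold change of each of the 40 mitosis genes with doxycycline against vehicle (x axis, bars are the standard error) in EW8 cells (circles) and TC71 cells (squares), ordered by role, with open symbols where the adjusted p was 0.05 or more. Nearly all points lie left of 0, between -0.91 and 0, and ANLN lies near 0.5 in each line.

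The shift was seen library by library. The summed level of the 40 members was 9937, 9626 and 9835 CPM in the EW8 vehicle libraries and 7666, 7630 and 7782 CPM in the EW8 doxycycline libraries. In TC71 cells the sum was 7065, 6468 and 6265 CPM with vehicle and 5461, 5295 and 5240 CPM with doxycycline. The groups did not overlap in either line, and TC71 vehicle replicate 1 gave the highest sum of its line. For single genes, all doxycycline libraries lay below all vehicle libraries for 37 members in EW8 cells, beside 29.1% of all tested genes, and for 30 members in TC71 cells, beside 23.1%. The reverse held for 1 member in each line, beside 26.9% of all tested genes in EW8 and 27.6% in TC71 cells. TC71 vehicle replicate 1 had the highest value of its group for 29 of the 40 members, beside 41.2% of all tested genes. Without that library, 32 members fell and 1 rose in TC71 cells.

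**Figure D2:**
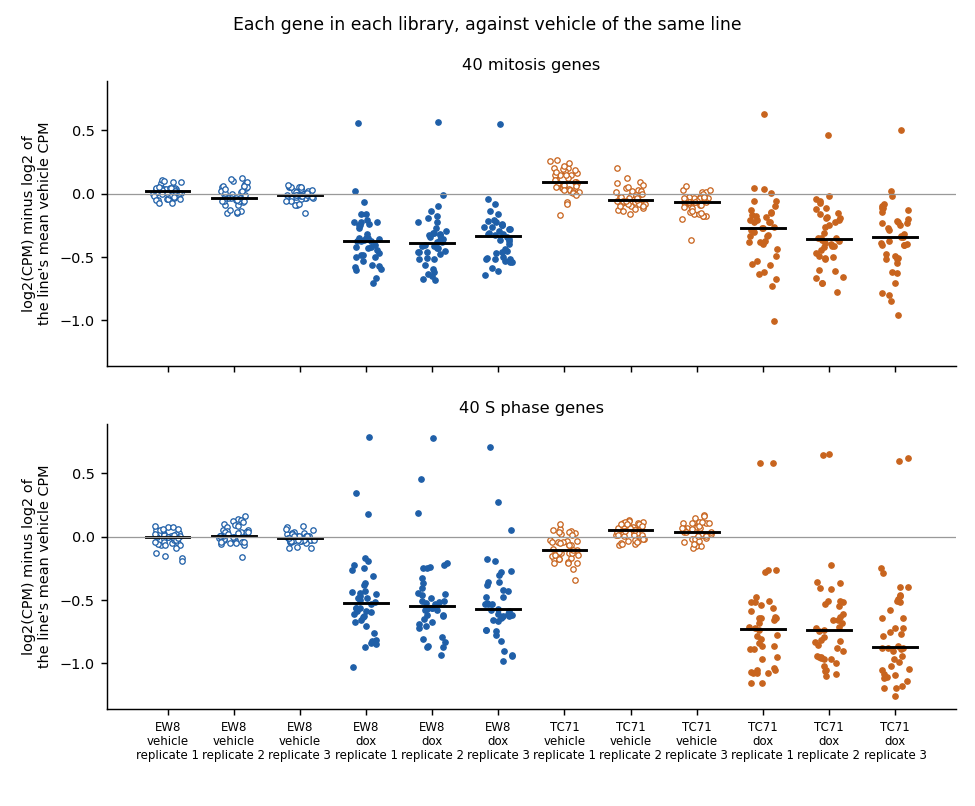
Each point is a gene in a library, as log2 CPM minus the log2 of the mean vehicle CPM of the same line (y axis), for the 40 mitosis genes (upper panel) and 40 S phase genes (lower panel). Open points are vehicle libraries, filled points doxycycline libraries and black lines medians. The medians of the mitosis genes sit between -0.39 and -0.33 in the EW8 doxycycline libraries and between -0.36 and -0.27 in the TC71 doxycycline libraries.

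The promoters of 33 of the 40 members were matched by symbol in RefSeq (GRCh38.p14), as windows of 300 bases from 250 bases before to 50 bases after the gene's start. A CCAAT box (CCAAT on either strand) was present in 25 of the 33 windows (75.8%), beside 35.7% of all 27305 promoter windows. A CHR (TTTGAA or TTCGAA on either strand) was present in 25 windows (75.8%), beside 16.6% of all promoters. Both motifs occurred together in 21 windows (63.6%), beside 6.6% of all promoters, 28 of 110 promoters of the other mitosis genes (25.5%) and 2 of 35 S phase gene promoters (5.7%). The AP-1 site TGACTCA was found in 0 of the 33 windows, beside 4.9% of all promoters, which says only that these letters are not in these windows. The stretches below belong to 6 members that hold both motifs and show how the motifs are spaced. Each is given 5′ to 3′ on the gene's own strand, begins 160 bases before the RefSeq start and keeps only bases outside the exons of the gene in the count table. Capitals mark CCAAT boxes and CHRs, where a box on the other strand reads ATTGG and a CHR on the other strand reads TTCAAA.

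MKI67: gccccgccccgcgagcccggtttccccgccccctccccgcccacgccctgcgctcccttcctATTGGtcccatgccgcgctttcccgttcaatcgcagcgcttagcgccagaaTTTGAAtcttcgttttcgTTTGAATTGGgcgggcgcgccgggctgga
TOP2A: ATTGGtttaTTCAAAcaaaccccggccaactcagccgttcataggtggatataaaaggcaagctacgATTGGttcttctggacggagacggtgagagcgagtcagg
CDC20: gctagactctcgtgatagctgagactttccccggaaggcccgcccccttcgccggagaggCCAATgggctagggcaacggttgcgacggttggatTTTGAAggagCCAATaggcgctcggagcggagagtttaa
KIF11: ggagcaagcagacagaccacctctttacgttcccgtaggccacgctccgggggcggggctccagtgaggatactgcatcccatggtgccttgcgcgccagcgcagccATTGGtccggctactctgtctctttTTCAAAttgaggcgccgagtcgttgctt
KIF4A: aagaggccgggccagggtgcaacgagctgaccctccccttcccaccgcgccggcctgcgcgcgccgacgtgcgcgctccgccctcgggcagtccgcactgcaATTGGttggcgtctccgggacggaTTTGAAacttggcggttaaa
ASPM: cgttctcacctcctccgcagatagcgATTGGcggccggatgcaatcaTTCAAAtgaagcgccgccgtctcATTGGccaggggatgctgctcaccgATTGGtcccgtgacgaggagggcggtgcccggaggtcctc

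The MKI67 stretch lies at chr10:128126424-128126583 on the minus strand and holds 2 CCAAT boxes and 2 CHRs, the second CHR sharing its last base with a box. The TOP2A stretch lies at chr17:40417951-40418056 on the minus strand and holds 2 boxes around a CHR at the far end. The CDC20 stretch (chr1:43358821-43358954, plus strand) has a CHR between 2 boxes, and the ASPM stretch (chr1:197146695-197146829, minus strand) has 3 boxes and 1 CHR. In the KIF11 stretch (chr10:92592970-92593129, plus strand) and the KIF4A stretch (chrX:70289944-70290089, plus strand), 1 box is followed by 1 CHR. Of the 21 members with both motifs, 17 fell in EW8 cells and 15 in TC71 cells (median log2 fold change -0.35 and -0.30). Among the 12 members with a window that lacked an exact match to at least 1 of the motifs, 11 and 9 fell (medians -0.46 and -0.38). Only exact matches in 1 window per gene were sought. A missing CCAAT box or CHR therefore says only that these letters are not in that window. The shares of all tested genes called lower were 22% and 20.4%. A link between motifs and response was not tested. The window of ANLN, the gene that rose, held 2 CHRs and no CCAAT box.

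**Figure D3:**
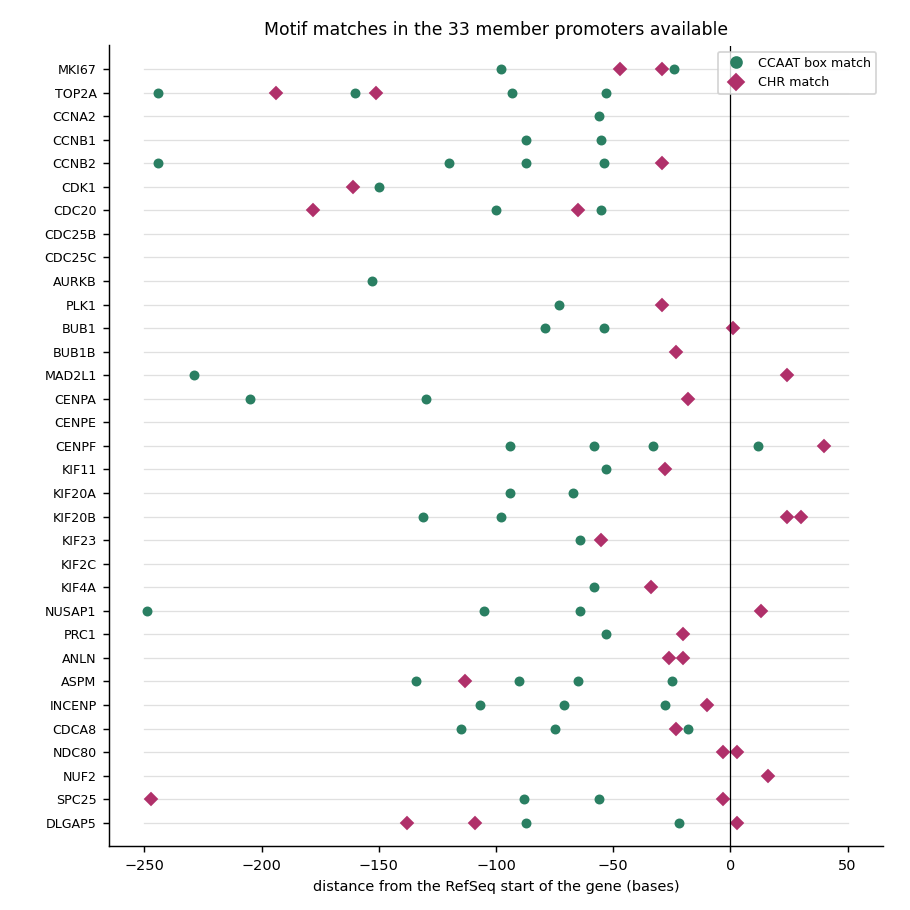
Positions of CCAAT boxes (circles) and CHRs (diamonds) in the 33 member promoters, as the distance of the first base of each match from the RefSeq start (x axis, bases). Most matches lie in the 160 bases before the start, and 4 windows (CDC25B, CDC25C, CENPE and KIF2C) hold none.

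MKI67, which encodes the Ki-67 antigen that coats mitotic chromosomes, and TOP2A, the topoisomerase that untangles sister DNA, are the most used markers of dividing cells. MKI67 read 915, 872 and 943 CPM in the EW8 vehicle libraries and 659, 662 and 666 CPM with doxycycline. In TC71 cells it read 527, 523 and 428 CPM with vehicle and 351, 376 and 350 CPM with doxycycline. Every doxycycline library lay below every vehicle library of its line. The log2 fold change was -0.46 ± 0.07 (SE, 3 libraries against 3 in a fit of all 12) in each line. The edgeR adjusted p was 1.53e-05 in EW8 and 1.43e-05 in TC71 cells. Here and below, the SE rests on a spread pooled over the 4 groups, so it does not show which group varied more. TOP2A read 1091, 985 and 1064 CPM in EW8 vehicle libraries and 658, 655 and 686 CPM with doxycycline. In TC71 cells it read 391, 348 and 344 CPM with vehicle and 227, 222 and 235 CPM with doxycycline. Its log2 fold changes of -0.65 ± 0.06 and -0.66 ± 0.06 were among the 5 lowest in each line. The gene lies at chr17:40388516-40417950 of hg38.

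Cyclins A and B bind CDK1 to form the kinase that drives entry into mitosis, and the CDC25 phosphatases switch that kinase on. All 6 members of this role fell in EW8 cells and 5 of 6 in TC71 cells. Here and for the roles below, the shares of all tested genes called lower were 22% in EW8 and 20.4% in TC71 cells. CCNA2, the cyclin of S phase and G2, had the lowest log2 fold change of all members in EW8 cells, -0.67 ± 0.06, with 201, 188 and 198 CPM in vehicle libraries and 120, 123 and 126 CPM in doxycycline libraries. In TC71 cells its log2 fold change was -0.47 ± 0.06. CCNB1, the main cyclin of mitotic entry, fell from 449 ± 9.50 (SD, n = 3) to 343 ± 21.4 CPM in EW8 cells and from 239 ± 22.4 to 196 ± 9.93 CPM in TC71 cells. CDK1 read 182, 174 and 180 CPM in EW8 vehicle libraries and 140, 144 and 151 CPM with doxycycline. In TC71 cells CDK1 read 160, 150.0 and 144 CPM with vehicle and 117, 108 and 115 CPM with doxycycline. The CDK1 groups did not overlap in either line, and the log2 fold changes were -0.30 ± 0.06 and -0.42 ± 0.06. CDC25B fell in each line and was among the 5 lowest in TC71 cells, at -0.67 ± 0.06. CDC25C was lower in EW8 cells at -0.27 ± 0.09 (adjusted p = 0.0153, edgeR) and stood at -0.07 ± 0.09 in TC71 cells (adjusted p = 0.538, edgeR), where the groups overlapped. The EW8 call was lost in 7 of 19 alternative settings.

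AURKA, which matures the spindle poles, and PLK1, which acts from mitotic entry to cell division, moved by nearly the same amount in each line. AURKA was at 204, 193 and 196 CPM in EW8 vehicle libraries and at 147, 152 and 146 CPM with doxycycline. In TC71 cells it was at 152, 120 and 113 CPM with vehicle, the highest being replicate 1, and at 97.3, 95.7 and 97.1 CPM with doxycycline. The groups did not overlap, and the log2 fold change was -0.41 ± 0.08 in each line. PLK1 changed by -0.28 ± 0.06 in EW8 and -0.27 ± 0.06 in TC71 cells on the log2 scale. FOXM1, the transcription factor that switches on many of these genes in G2, read 357, 392 and 378 CPM in EW8 vehicle libraries and 322, 312 and 316 CPM with doxycycline. In TC71 cells FOXM1 read 183, 172 and 171 CPM with vehicle and 152, 154 and 143 CPM with doxycycline. FOXM1 was thus lower in every doxycycline library, by a log2 fold change of -0.25 ± 0.05 in EW8 and -0.23 ± 0.05 in TC71 cells.

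The chromosomal passenger complex, which corrects faulty attachments of chromosomes to the spindle, consists of the kinase AURKB, the scaffold INCENP, and survivin (BIRC5) and borealin (CDCA8), which place it at the centromere. All 4 subunits fell in TC71 cells and 3 of 4 in EW8 cells. AURKB read 134, 140 and 117 CPM in EW8 vehicle libraries and 93.4, 98.8 and 91.4 CPM with doxycycline. In TC71 cells it read 83.1, 93.0 and 85.4 CPM with vehicle and 52.7, 55.2 and 48.5 CPM with doxycycline. AURKB had a log2 fold change of -0.46 ± 0.07 in EW8 cells and -0.74 ± 0.07 in TC71 cells, where it was the second lowest member. INCENP was at 213, 218 and 213 CPM in EW8 vehicle libraries and at 218, 213 and 195 CPM with doxycycline. These groups overlapped, the log2 fold change was -0.04 ± 0.06 (adjusted p = 0.63, edgeR), and in TC71 cells INCENP fell by 0.27 ± 0.06 on the log2 scale.

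The spindle checkpoint holds cells in metaphase until every chromosome is attached, by keeping CDC20, the activator of the APC/C, inactive, and UBE2C is the ubiquitin-conjugating enzyme of that ligase. Of these 7 members, 6 fell in EW8 and 5 in TC71 cells. MAD2L1, the checkpoint protein that captures CDC20, and BUB1B, its partner BUBR1, were among the 5 lowest members in EW8 cells, with log2 fold changes of -0.57 ± 0.07 and -0.56 ± 0.06. In TC71 cells they changed by -0.52 ± 0.07 and -0.57 ± 0.06. BUB1, the kinase that gathers the checkpoint proteins at the kinetochore, read 499.9, 475 and 486 CPM in EW8 vehicle libraries and 382, 388 and 403 CPM with doxycycline. In TC71 cells BUB1 read 189, 153 and 159 CPM with vehicle and 140, 131 and 141 CPM with doxycycline. Its groups did not overlap in either line, and its log2 fold changes were -0.32 ± 0.07 and -0.29 ± 0.07. BUB3, the adaptor of the checkpoint, did not pass the test in either line, at -0.07 ± 0.05 (adjusted p = 0.33, edgeR) and -0.03 ± 0.05 (adjusted p = 0.747). CDC20 fell in EW8 cells by 0.21 ± 0.07 on the log2 scale, a call lost in 6 of 19 alternative settings, and had a log2 fold change of -0.10 ± 0.07 in TC71 cells (adjusted p = 0.292, edgeR). Its TC71 groups overlapped, with vehicle libraries at 365, 302 and 285 CPM and doxycycline libraries at 305.5, 305.2 and 276 CPM.

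The kinetochore is the protein plate on the centromere that binds spindle microtubules, and CENPA is the histone variant on which it is built. Of its 6 members here, 5 fell in EW8 and 4 in TC71 cells. CENPE, a motor that moves chromosomes to the spindle equator, was the third lowest member in EW8 cells, with 250, 211 and 243 CPM in vehicle libraries, 155, 150 and 157 CPM in doxycycline libraries and a log2 fold change of -0.61 ± 0.09. SPC25, a subunit of the NDC80 complex that grips microtubules, had the lowest value of this role in TC71 cells, -0.63 ± 0.08. CENPA read 42.3, 48.5 and 42.97 CPM in EW8 vehicle libraries and 38.2, 35.6 and 42.2 CPM with doxycycline. The CENPA groups nearly touched without overlapping in EW8 cells, and its log2 fold change of -0.21 ± 0.10 did not pass (adjusted p = 0.114, edgeR). In TC71 cells CENPA fell, by 0.32 ± 0.10 on the log2 scale (adjusted p = 0.0185, edgeR). CENPF, a large kinetochore protein, and NUF2, the partner of NDC80, fell in EW8 cells and had log2 fold changes of -0.15 ± 0.07 and -0.16 ± 0.08 in TC71 cells (adjusted p = 0.097 and 0.125, edgeR). In TC71 cells CENPF passed as lower in 11 of 19 alternative settings and NUF2 in 7.

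Kinesins are motors that work on microtubules. Of the 6 here, 5 fell in EW8 and 4 in TC71 cells. KIF2C, which shortens microtubules at the centromere, and KIF11, which pushes the spindle poles apart, had the lowest values among them in both lines. KIF2C read 241, 247 and 231 CPM in EW8 vehicle libraries and 161, 167 and 166 CPM with doxycycline. In TC71 cells KIF2C read 181, 193 and 199 CPM with vehicle and 123, 121 and 117 CPM with doxycycline. Its groups stood well apart, with log2 fold changes of -0.54 ± 0.05 and -0.67 ± 0.05. KIF11, whose promoter is printed above, changed by -0.54 ± 0.05 and -0.43 ± 0.05, and KIF4A, a motor on chromosome arms, by -0.27 ± 0.05 and -0.33 ± 0.05. KIF20A, a motor needed for cell division, changed by -0.37 ± 0.09 and -0.41 ± 0.09. KIF20B did not pass in either line (adjusted p = 0.0675 and 0.44, edgeR), and KIF23, a subunit of the central spindle, fell in EW8 cells by 0.35 ± 0.07 on the log2 scale and stood at -0.06 ± 0.07 in TC71 cells (adjusted p = 0.491, edgeR).

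The last role joins genes of spindle assembly and of cytokinesis, the final splitting of the cell. Of these 6 members, 4 fell and 1 rose in EW8 cells, and 3 fell and 1 rose in TC71 cells. NUSAP1, which bundles spindle microtubules, had the lowest log2 fold change of all members in TC71 cells. It read 24.5, 23.9 and 23.4 CPM in TC71 vehicle libraries and 11.9, 13.98 and 12.3 CPM with doxycycline. In EW8 cells it read 30.0, 28.7 and 30.9 CPM with vehicle and 22.4, 21.8 and 23.6 CPM with doxycycline. The log2 fold change of NUSAP1 was -0.91 ± 0.09 in TC71 cells and -0.40 ± 0.09 in EW8 cells. An unnamed gene model on the same strand shares 62.2% of its exon bases, and reads there were not counted for either gene. TPX2, which carries AURKA to the spindle, fell by 0.22 ± 0.05 and 0.21 ± 0.05 on the log2 scale. PRC1, the bundler of the central spindle, kept only between 3.09 and 6.63 CPM, with 58.4% of its exon bases shared with other gene models, and did not pass in either line (log2 fold change -0.33 ± 0.18 and -0.44 ± 0.19). In TC71 cells PRC1 passed as lower in 11 of 19 alternative settings.

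ANLN moved against the other members. It encodes anillin, a scaffold that ties actin, myosin and septins together in the cleavage furrow. ANLN read 282, 264 and 276 CPM in EW8 vehicle libraries and 403, 406 and 402 CPM with doxycycline. In TC71 cells it read 163, 134 and 129 CPM with vehicle and 219, 196 and 202 CPM with doxycycline. Every doxycycline library lay above every vehicle library of its line, in contrast to all other members. The log2 fold change was 0.56 ± 0.07 in EW8 cells and 0.53 ± 0.07 in TC71 cells, with an edgeR adjusted p of 3.88e-06 and 6.16e-06. After ANLN, the highest log2 fold changes were those of INCENP and BUB3 in EW8 cells and of ASPM (0.00 ± 0.06) and BUB3 in TC71 cells, and none of these passed the test. The gene lies at chr7:36389806-36453791 of hg38, and 1.3% of its exon bases are shared with a gene on the other strand.

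**Figure D4:**
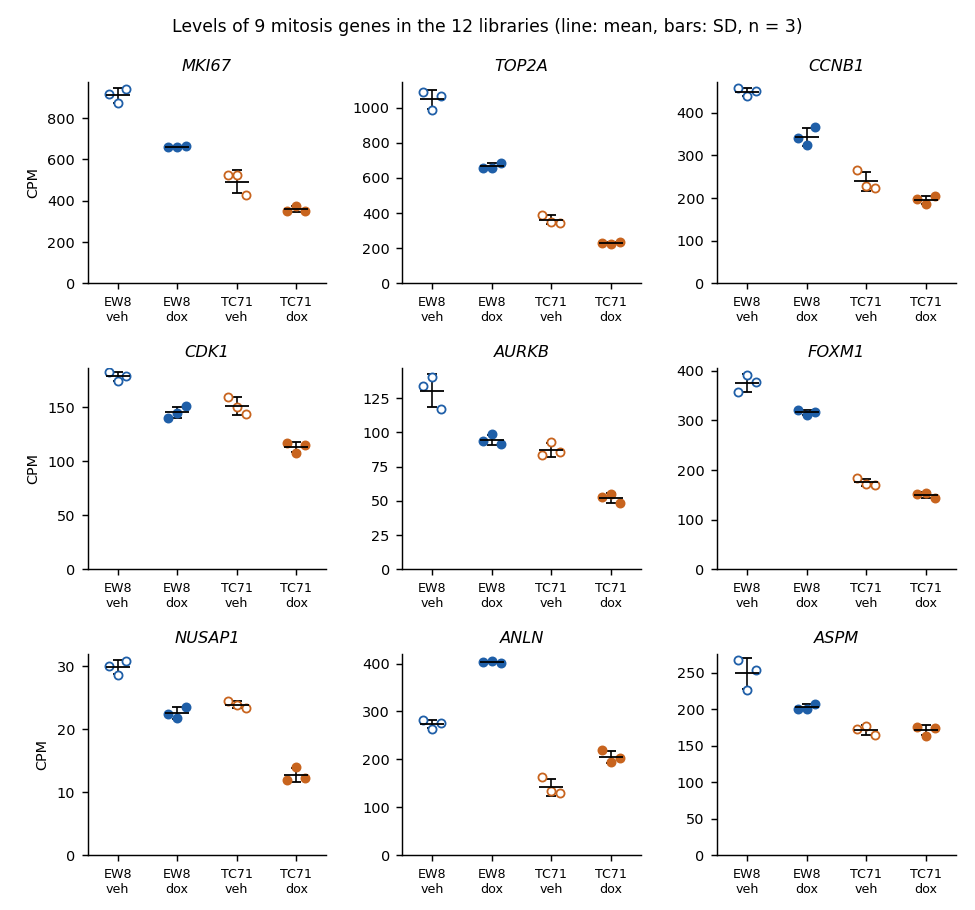
CPM (y axis, from 0) of 9 mitosis genes in the 12 libraries, with open points for vehicle and filled points for doxycycline. Horizontal lines are means and bars are SD of 3 libraries. ANLN rises in each line, ASPM falls in EW8 cells only to between 200 and 207 CPM and overlaps in TC71 cells, and the remaining 7 genes are lower in every doxycycline library.

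A difference in response between the 2 lines was not called for 36 of the 40 members. That does not show the sizes to be alike, since with 3 libraries a group smaller differences can be missed. Of the 40, 28 fell in both lines, 6 passed the test as lower in EW8 alone, 2 in TC71 alone, and 3 (BUB3, KIF20B and PRC1) passed in neither, which leaves ANLN. Of all tested genes, 22% were called lower in EW8 and 20.4% in TC71 cells, and the share called lower in both was not computed. Across the 40 genes, which are not independent replicates, the responses of the lines correlated with Pearson's r = 0.73 and Spearman's rho = 0.65, and with r = 0.58 without ANLN. The lines have separate vehicle libraries, and the 40 points share the 12 libraries. Tested directly, the response differed between the lines for 4 members (interaction, edgeR adjusted p under 0.05), beside 19.3% of all tested genes. None of these differences exceeded 1 in size, which 2.87% of all tested genes did toward lower and 4.18% toward higher values in TC71 cells. NUSAP1 fell further in TC71 cells, by a difference of -0.51 ± 0.12 in log2 fold change (adjusted p = 0.00708). For NUF2 (0.35 ± 0.12), ASPM (0.29 ± 0.09) and KIF23 (0.29 ± 0.10) the log2 fold change was less negative in TC71 cells, where none of them passed the test, with adjusted p-values for the difference of 0.0425, 0.0226 and 0.043. Of all tested genes, 7.07% were called with a lower and 12.2% with a higher response in TC71 cells. ASPM, which orients the spindle and whose promoter is shown above, read 268, 226 and 254 CPM in EW8 vehicle libraries and 200.3, 201 and 207 CPM with doxycycline. In TC71 cells ASPM read 173, 177 and 164 CPM with vehicle and 176, 163 and 175 CPM with doxycycline, so that the groups overlapped there. Only NUSAP1 was called in all 18 alternative settings that give this test, while NUF2 was called in 5, ASPM in 6 and KIF23 in 4. Among members that did not pass here, INCENP was called in 12 of them, AURKB in 10, CDC25B in 8, BIRC5 in 3, and CDK1 and KIF2C in 2 each, all with the more negative response in TC71 cells, and CENPE in 2 with the less negative one. Without TC71 vehicle replicate 1, 10 members differed.

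Without induction, most of the mitosis genes were lower in TC71 than in EW8 cells, both given vehicle for 72 h. Of the 40 members, 31 were lower in TC71 vehicle, 2 were higher and 7 did not pass, beside 33.5% of all tested genes called lower, 28.2% called higher and 61.7% called in either direction. The median log2 difference was -0.47, and over all tested genes it was -0.04. BUB1 (-1.54 ± 0.07), TOP2A (-1.54 ± 0.06) and FOXM1 (-1.10 ± 0.05) were the lowest in TC71 and the only members past a log2 difference of 1 in size, which 18.9% of all tested genes passed downward and 11.6% upward. BIRC5, the passenger subunit that also restrains cell death, was higher in TC71 cells, at 364, 356 and 370 CPM against 256, 274 and 262 CPM (log2 difference 0.46 ± 0.05). PLK1 was also higher, at 283, 284 and 267 CPM against 206, 222 and 208 CPM (0.39 ± 0.06). The next highest among the members that passed was CDCA8, at -0.19 ± 0.07. Members with nearly the same response in the lines, such as MKI67 and BUB1, thus had vehicle levels that differed by -0.89 ± 0.07 and -1.54 ± 0.07 on the log2 scale. Comparisons between the lines rest on 2 cell lines, and each result is about those lines.

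**Figure D5:**
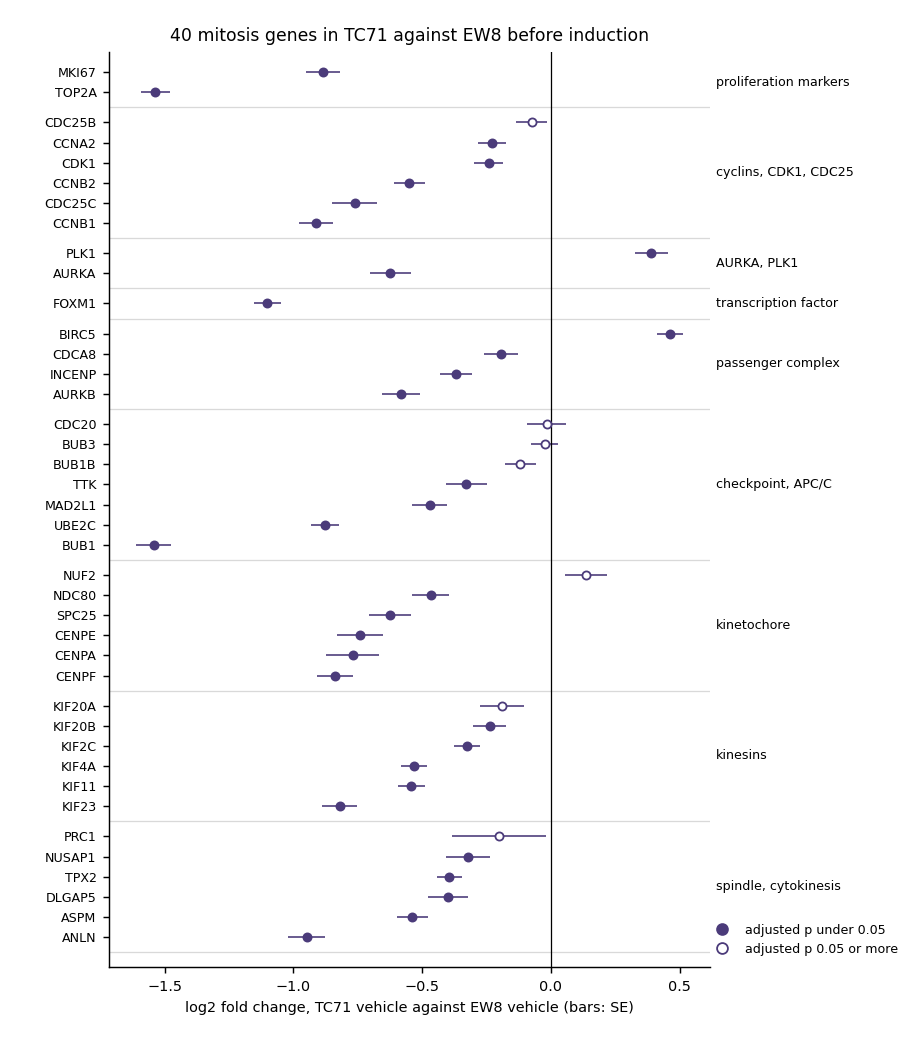
Log2 fold change of each of the 40 mitosis genes in TC71 vehicle against EW8 vehicle (x axis, bars are the standard error), ordered by role, with open symbols where the adjusted p was 0.05 or more. BUB1 and TOP2A lie at -1.54, and PLK1 and BIRC5 are the filled points right of 0.

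Per kilobase of exon, the members with the highest level in EW8 vehicle libraries were CCNB1 (176 CPM per kb), UBE2C (172), TOP2A (163), CDC20 (158) and TPX2 (157). In TC71 vehicle libraries CDC20 (156 CPM per kb) and TPX2 (120) led, followed by BIRC5 (95.3), UBE2C (93.8) and CCNB1 (93.3). PRC1 was lowest in both lines, at 1.12 and 0.975 CPM per kb, with most of its exon bases left uncounted as described.

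Of 128 other genes of mitosis and its control, in 7 written lists, 88 fell and 9 rose in EW8 cells, beside 22% and 21.9% of all tested genes. In TC71 cells 80 fell and 15 rose, beside 20.4% and 25.1% of all tested genes, with median log2 fold changes of -0.34 and -0.31. Condensin, which compacts chromosomes, had 7 of 8 subunits lower in each line, with NCAPG lowest in EW8 cells (-0.59 ± 0.06) and NCAPH2 lowest in TC71 cells (-0.68 ± 0.08). Among genes of cohesin, the ring that holds sister chromatids together, and of its removal, 10 of 13 fell in EW8 and 8 of 13 in TC71 cells. SGO2, a guardian of cohesin, was lowest in EW8 cells (-0.78 ± 0.13), and PTTG1, the inhibitor of separase, rose in TC71 cells (0.33 ± 0.06) and did not pass in EW8 cells (-0.02 ± 0.06). Of 33 further kinetochore genes, 22 and 23 fell and 4 and 2 rose. CENPK in EW8 cells (-0.88 ± 0.12) and CENPM in TC71 cells (-1.17 ± 0.09) were lowest. CENPT in EW8 cells (0.53 ± 0.09) and CENPP in TC71 cells (0.68 ± 0.10) were highest. Subunits and regulators of the APC/C had the medians nearest 0 of the 7 lists, at -0.17 and -0.08, with 8 of 17 lower in EW8 and 6 of 17 in TC71 cells. CDC23 was lowest (-0.67 ± 0.06) and ANAPC11 highest (0.24 ± 0.09) of that list in EW8 cells. FBXO5 was lowest (-0.43 ± 0.07) in TC71 cells, and FZR1, the activator that replaces CDC20 after anaphase, was highest (0.44 ± 0.08).

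Of 22 other spindle and cytokinesis genes, 18 fell in EW8 and 15 in TC71 cells, beside 22% and 20.4% of all tested genes. KIF15 in EW8 cells (-0.86 ± 0.08) and PSRC1 in TC71 cells (-0.95 ± 0.09) were lowest. KIF13B, a kinesin of membrane traffic rather than of the spindle, rose by 1.88 ± 0.09 in EW8 and 1.75 ± 0.09 in TC71 cells. Of 14 genes that control mitotic entry, 8 and 9 fell. CCNF, the cyclin of a ubiquitin ligase, was lowest in EW8 cells (-0.79 ± 0.06). WEE1, the kinase that holds CDK1 inactive, was lowest in TC71 cells (-0.74 ± 0.09) and had a log2 fold change of 0.01 ± 0.09 in EW8 cells, a difference that passed the interaction test (-0.75 ± 0.13, adjusted p = 0.000379, edgeR). The phosphatase gene CDC14B had the highest value of that list in each line, 0.20 ± 0.14 (adjusted p = 0.249, edgeR) and 0.62 ± 0.14. Of 21 genes that control transcription of the cell cycle, among them the subunits of DREAM and NF-Y, 15 fell in EW8 and 12 in TC71 cells. The lowest were the repressors E2F5 in EW8 cells (-0.77 ± 0.09) and E2F8 in TC71 cells (-1.31 ± 0.08). CDKN1A, which encodes the CDK inhibitor p21, rose in each line, by 3.20 ± 0.19 in EW8 and 1.71 ± 0.18 in TC71 cells (interaction -1.49 ± 0.25, adjusted p = 0.000345, edgeR). E2F7, a repressor of E2F target genes, rose by 2.38 ± 0.06 in TC71 cells and had a log2 fold change of -0.06 ± 0.06 in EW8 cells (interaction 2.44 ± 0.09, adjusted p = 1.4e-12, edgeR).

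The 40 genes of S phase, which copy the DNA before mitosis, had lower medians than the mitosis genes in each line, a difference that was not tested. In EW8 cells 37 fell and 2 rose (median log2 fold change -0.55), beside 22% and 21.9% of all tested genes. In TC71 cells 38 fell and 2 rose (median -0.77), beside 20.4% and 25.1%. The lowest were GINS1 in EW8 cells (-0.98 ± 0.07) and PRIM1 in TC71 cells (-1.12 ± 0.09), both of the replication machinery. The highest were CCNE1, the cyclin of S phase entry, in EW8 cells (0.76 ± 0.09) and the replication gene GINS3 in TC71 cells (0.62 ± 0.08). By the interaction test (edgeR), 16 S phase genes had a more negative response in TC71 than in EW8 cells and 0 a less negative one. The shares over all tested genes were 7.07% and 12.2%. At an unadjusted p under 0.05 (edgeR), the S phase counts were 23 and 2. The counts at that threshold were 4 and 5 of the 40 mitosis genes, and 2525 and 3858 of all 21013 tested genes. The summed level of the S phase genes was between 7408 and 7607 CPM in EW8 vehicle and between 5131 and 5251 CPM in EW8 doxycycline libraries. In TC71 cells it was between 6179 and 6866 CPM with vehicle and between 3692 and 3861 CPM with doxycycline, with no overlap. TC71 vehicle replicate 1 had the lowest S phase sum of its group and the highest mitosis sum, and it was the highest of 3 for 7 of the 40 S phase genes.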

How the data were processed

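The members and gene lists were chosen with earlier results of these data known. Polyadenylated RNA was sequenced as read pairs. The authors checked reads with FastQC, aligned them with STAR to hg38 and summarized them with featureCounts v2.0.1 over GENCODE v29 exons. The deposited values were raw counts for each gene without any normalization. According to the file headers, each mate was counted, strand was not used, and reads on several places or genes were dropped. Counts of the 15 members that share exon bases with another gene and of the 11 with a pseudogene or retrocopy are therefore uncertain. Gene identifiers were paired with symbols for 58207 genes (99.1%). Exon lengths in the deposited table (other unit, base pairs) served only for CPM per kb.

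Libraries were scaled by TMM, and CPM use that scaling. edgeR 4.0.16 (R 4.3.3) fitted all 12 libraries in 1 quasi-likelihood model with 4 groups and no covariate (common dispersion 0.0143), after filterByExpr. Benjamini-Hochberg adjustment covered all 21013 genes, and the threshold for a call was an adjusted p of 0.05. The authors used DESeq2 for calls, and DESeq2 1.42.0 served as another tool. In data simulated for the EW8 contrast (19094 genes), 87% of changes of 0.5 and 100% of changes of 1 (log2) were recovered. The changed genes were drawn only from genes above a set level in EW8 vehicle, which PRC1 does not reach. The simulated spread was pooled over the 4 groups, so these shares do not describe TC71 cells on their own. Counting intervals would cover counting error only, since PCR copies are not separate molecules. Promoters came from RefSeq (GRCh38.p14). Named genes were 12 fixed members, the 5 lowest and 3 highest per line, those not called or differing between lines, and the ends of each list. Alternatives changed the tool, scaling, filter, samples, fold limit and replicate block, and left out each library in turn.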

Additional observations from a re-analysis of the deposited data

Results flagged for a closer look

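In 4 members the response to doxycycline differed between the lines by the interaction test (edgeR, adjusted p under 0.05). NUSAP1 fell further in TC71 cells, by a difference of -0.51 in log2 fold change. Its 3 TC71 doxycycline libraries, between 11.9 and 13.98 CPM, lay below the EW8 doxycycline libraries, between 21.8 and 23.6 CPM. Its TC71 vehicle libraries, between 23.4 and 24.5 CPM, also lay below those of EW8, between 28.7 and 30.9 CPM. The gap with doxycycline is therefore not a measure of the response alone. Another gene model shares 62.2% of the exon bases of NUSAP1. The response was less negative in TC71 cells by 0.35 for NUF2, by 0.29 for ASPM and by 0.29 for KIF23, and in TC71 cells none of these 3 passed the test as lower. The count of such members was 10 without TC71 vehicle replicate 1, 1 without EW8 vehicle replicate 1, without TC71 doxycycline replicate 1 or without TC71 doxycycline replicate 3, and 6 with DESeq2.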

How the results depend on the processing

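Counts of members that fell were 34 in EW8 and 32 in TC71 cells with DESeq2, against 34 and 30, and ranged from 31 to 34 and from 28 to 34 when single libraries were left out. With the added limit of an absolute log2 fold change over 1, 0 members fell and 0 rose in either line, 0 differed between the lines, and 3 were lower and 0 higher in TC71 vehicle. The members that differed between the lines numbered 7 with at least 10 counts in every library and from 1 to 10 when single libraries were left out. Members lower in TC71 vehicle then ranged from 28 to 31 and those higher from 2 to 3. The median log2 fold change of the members in EW8 cells was -0.431 with library size alone, -0.309 with at least 10 counts, -0.326 with 1 line fitted alone and from -0.372 to -0.301 without single libraries, and the median log2 fold change of the members in TC71 cells was -0.402 with library size alone and from -0.384 to -0.296. The cause was not tested. Library size alone also moved the median of all tested genes, from -0.031 to -0.089 in EW8 and from 0.000 to -0.079 in TC71 cells. INCENP in EW8 cells turned to 0.022 with at least 10 counts, 0.005 with 1 line alone, and 0.047, 0.004 and 0.002 without EW8 doxycycline replicate 3, TC71 vehicle replicate 1 or TC71 vehicle replicate 3, within a range of -0.047 to 0.047 over single libraries left out. In TC71 cells BUB3 turned to 0.017 without TC71 doxycycline replicate 3 (range -0.100 to 0.017), and ASPM to 0.021 and 0.032 without TC71 vehicle or doxycycline replicate 2 (range -0.077 to 0.032). None of these reversed values passed the test. Of 1700 gene results over the alternatives, 1589 (93.5%) kept direction and side of the threshold, while of the results on the difference between the lines 33 kept the call and 39 lost it. The 1700 cover both responses of every member, but the difference between the lines only for the 4 members called in the main fit. Vehicle levels are covered for only some members. Calls of a line difference gained by other members, such as INCENP and AURKB, are left out of that share. Of the responses, 735 in EW8 and 718 in TC71 cells kept theirs, and 17 and 7 calls were lost, 3 and 32 gained. The main fit did not pair samples by replicate number. Deviations of same-numbered libraries correlated between -0.028 and 0.01 over all tested genes, which cannot exclude a pairing that touches few genes. With the replicate block 34 and 31 members fell and 6 differed between the lines, against 4 in the main fit. PRC1, TC71 doxycycline against vehicle, passed under the replicate block at -0.438 (adjusted p = 0.0389, edgeR), which was 1 of 11 settings in which it passed. With 3 libraries a group, smaller changes than the simulated 0.5 are less surely found.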
